A study of Rattus norvegicus with 4 samples.

Results

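The insulin-like growth factor (IGF) family was measured by 20 probe sets, of 23707 tested, for 10 genes, of 12922 with a probe set of their own: the ligands Igf1 and Igf2, the receptors Igf1r and Igf2r, and the binding proteins Igfbp2 to Igfbp7. Members were all probe sets that the platform annotation assigned to exactly 1 of these gene symbols, whatever their values. The cells were rat aortic smooth muscle cells, plated at 10000 per cm2, grown for 24 h in 10% fetal bovine serum and then starved for 72 h in medium free of serum and insulin. The PDGF-BB group received platelet-derived growth factor BB at 30 ng/mL for 3 h, and the vehicle group received acetic acid at 10 mM with 0.2% bovine serum albumin for the same time, both in the starvation medium. Each group had 2 Affymetrix arrays. Whether replicate arrays stand for separate cultures is not in the labels, so p-values measure only the spread between these arrays, which may be technical. The study's question was which genes respond early in phenotypic modulation, the switch of smooth muscle cells away from the contractile state, and the comparison of the groups asked which IGF family transcripts differed at 3 h.

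IGF1 and IGF2 are secreted peptides that promote growth and survival of vascular smooth muscle cells through IGF1R, a receptor tyrosine kinase that signals through IRS adaptors, phosphoinositide 3-kinase and Akt. IGF2R, the cation-independent mannose 6-phosphate receptor, takes IGF2 up for lysosomal degradation and carries lysosomal enzymes. The binding proteins hold IGFs in the extracellular space and limit or prolong their action, and proteases such as the PAPP-A pappalysins release the ligand by cleaving them. IGF1 and PDGF have long been studied together as growth factors for arterial smooth muscle.

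The depth of an array is its brightness over background. The highest of 27 Bacillus control probe sets, at 80.3, served as a rough yardstick of background, and each array had between 41.0% and 41.8% of its probe sets no brighter than that. The median intensity was 144 and 132 on the PDGF-BB arrays and 145 and 148 on the vehicle arrays. All 10 smooth muscle markers examined were above the yardstick. Lmod1, Smtn, Myh11 and Mylk among them fell at a limma adjusted p under 0.05, as 15.3% of all genes did. The other 6 did not pass. Their log2 differences, PDGF-BB minus vehicle, were 0.39 for Myocd, 0.26 for Cnn1, 0.17 for Des, 0.02 for Tagln, -0.01 for Tpm2 and -0.10 for Acta2. Of 8 endothelial markers measured 1, Esam, was above it, while Pecam1, Vwf and Tie1 were at 20 or less on every array. Of 9 macrophage and leukocyte markers 3 were above it (Cd14, Aif1 and Lyz2), while Ptprc was at 23.4 or less. Of 9 fibroblast markers 6 were above it. Of 7 proliferation markers 5 fell, where 15.3% of all genes did, and Mcm5 and Pcna did not pass. The summed intensity of endothelial markers was 308 to 313 with PDGF-BB and 381 to 388 with vehicle. It was 1619 to 1721 and 1854 to 1878 for macrophage and leukocyte markers, and 27656 to 28700 and 30905 to 30993 for fibroblast markers. For smooth muscle markers it was 51129 to 53100 and 54529 to 55297. A few bright genes made up most of each sum. Esam averaged 205 with PDGF-BB and 289 with vehicle, Cd14 1209 and 1434, Col1a1 10792 and 11922, and Col3a1 13444 and 14440. Only Esam among these genes passed. The part of these cell types in the values below was not tested. In whole-culture RNA, fewer cells of a type and less RNA per cell cannot be told apart.

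The promoters of 5 genes are shown first: Igf1, the member whose probe set passed the test, Igfbp2 and Igfbp5, which are neighbours in the RefSeq gene order and lay on opposite sides of the background yardstick, and Irs1 and Igf2bp2, genes of the wider IGF axis of which the first was called lower and the second higher with PDGF-BB. Each line gives the 250 bases before a RefSeq start, 5′ to 3′ on the gene's own strand, on build GRCr8, and capitals mark matches to the motifs named after them.
Igf1 (chr7:24172282-24172531, plus strand): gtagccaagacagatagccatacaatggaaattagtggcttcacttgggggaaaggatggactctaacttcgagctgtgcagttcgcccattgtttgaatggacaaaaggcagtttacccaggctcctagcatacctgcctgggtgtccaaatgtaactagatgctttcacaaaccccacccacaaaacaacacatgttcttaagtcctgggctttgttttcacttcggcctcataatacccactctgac
Igfbp2 (chr9:81864561-81864810, plus strand): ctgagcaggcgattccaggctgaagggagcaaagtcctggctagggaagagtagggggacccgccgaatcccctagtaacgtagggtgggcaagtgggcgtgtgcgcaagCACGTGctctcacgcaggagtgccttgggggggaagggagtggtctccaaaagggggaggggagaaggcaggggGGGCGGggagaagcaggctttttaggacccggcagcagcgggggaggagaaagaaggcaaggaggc
Igfbp5 (chr9:81914188-81914437, minus strand): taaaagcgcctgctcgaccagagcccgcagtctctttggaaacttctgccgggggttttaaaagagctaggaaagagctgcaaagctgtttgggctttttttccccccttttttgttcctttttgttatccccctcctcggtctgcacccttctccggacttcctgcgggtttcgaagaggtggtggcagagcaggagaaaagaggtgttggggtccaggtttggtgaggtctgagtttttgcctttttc
Irs1 (chr9:91053960-91054209, minus strand): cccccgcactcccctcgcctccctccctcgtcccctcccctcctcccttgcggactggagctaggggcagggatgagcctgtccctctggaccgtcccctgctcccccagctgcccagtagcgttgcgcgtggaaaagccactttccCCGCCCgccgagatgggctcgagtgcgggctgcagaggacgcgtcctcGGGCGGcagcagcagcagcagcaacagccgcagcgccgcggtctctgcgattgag
Igf2bp2 (chr11:92378658-92378907, plus strand): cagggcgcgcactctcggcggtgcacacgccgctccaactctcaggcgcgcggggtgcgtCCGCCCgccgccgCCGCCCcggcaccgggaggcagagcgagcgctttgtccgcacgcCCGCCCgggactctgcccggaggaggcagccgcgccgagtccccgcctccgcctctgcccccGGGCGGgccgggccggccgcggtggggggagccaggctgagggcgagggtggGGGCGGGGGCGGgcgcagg

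The motifs were searched on both strands, and overlaps between motifs were allowed. The GC box GGGCGG was in 5 of the 11 member promoters (Igf2 has 2 in the table) and in 30.5% of all 33469 promoters of the same length. The E-box CACGTG was in 3 member promoters, those of Igf1r, Igf2r and Igfbp2, and in 5.59% of all. The FOXO core TGTTTAC was in the Igfbp6 promoter and 3.21% of all, the CRE core TGACG in that of Igf2r and 18.2% of all, the EGR motif GCGTGGGCG in that of Igf1r and 0.478% of all, and the CArG box in 1 of the Igf2 promoters and 1.5% of all. The AP-1 motif TGANTCA was in 0 of the 11 and in 6.34% of all. The Igf1, Igfbp3, Igfbp4 and Igfbp5 windows held none of the 7 motifs. GC content ran from 46.8% in the Igf1 window to 79.6% in that of Igf1r, against a median of 51.2% over all promoters. In the Irs1 and Igf2bp2 windows the GC box was the only motif of the 7 matched. A match is a description of the letters and not evidence of binding.

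Few IGF family transcripts differed between the groups beyond the spread of the arrays. Of the 20 member probe sets 1 was higher with PDGF-BB and 0 were lower at an adjusted p under 0.05 by limma, and 2 had an unadjusted p under 0.05. Among all probe sets 24.4% passed, 11.4% higher and 12.9% lower. Of the 10 genes, each taken by its brightest probe set, 1 passed, against 27.7% of all genes. The median size of the log2 difference was 0.14 over the 20 member probe sets, against 0.24 over all probe sets. For the 10 member probe sets above the yardstick in at least 1 group it was also 0.14, with 0 passed by limma and 1 at an unadjusted p under 0.05, where 35.6% of all such probe sets passed and their median size was 0.31. Of the 10 at or below it 1 passed, against 6.47% of all such probe sets. Both PDGF-BB arrays lay outside the range of the vehicle arrays in 12 of the 20 probe sets, 5 above and 7 below, and in 63.0% of all probe sets, 29.2% above and 33.8% below. All differences are PDGF-BB minus vehicle on the scale log2(intensity + 16), which understates changes of dim probe sets. The number of arrays limits the precision.

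**Figure D1:**
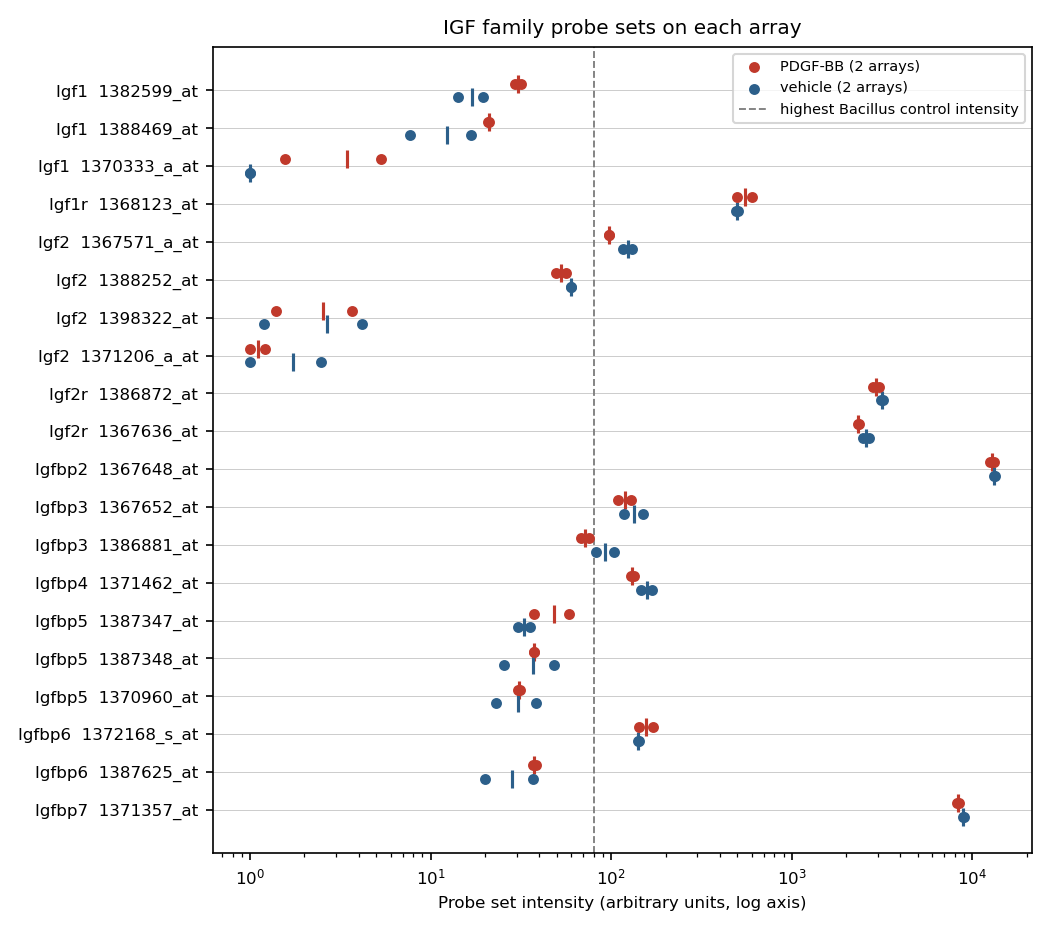
Intensity of each IGF family probe set on the 4 arrays (log axis, arbitrary units), with PDGF-BB arrays in red above vehicle arrays in blue, short bars for group means and a dashed line at the highest Bacillus control intensity, 80.3. The 3 Igf1 and 3 Igfbp5 probe sets lie left of the line on every array, and Igfbp2, Igfbp7 and Igf2r lie far to its right with nearly coinciding groups.

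Igf1 was the member called, at intensities near background. Its probe set 1382599_at had 29.5 and 31.7 on the PDGF-BB arrays, against 14.3 and 19.5 on the vehicle arrays. Both PDGF-BB arrays were above both vehicle arrays, and all 4 values were below 80.3. The log2 difference was 0.51 (SE 0.12, 95% interval 0.19 to 0.82, limma adjusted p 0.0432). The call ended when any 1 array was left out, with limma adjusted p-values of 0.108 and 0.144 without PDGF-BB replicate 1 or 2 and 0.231 and 0.110 without vehicle replicate 1 or 2, and it ended under 6 other settings. The second probe set, 1388469_at, had 21.2 and 20.9 with PDGF-BB, against 16.8 and 7.72 with vehicle. Its groups did not overlap either, but the log2 difference of 0.41 (95% interval -0.07 to 0.89) had a limma adjusted p of 0.183. The third, 1370333_a_at, had 5.32 and 1.56 with PDGF-BB and was listed at 1 on both vehicle arrays, a value that 362 to 399 probe sets share on each array. It passed no test (limma adjusted p 0.360). With the 3 probe sets averaged per gene, the log2 difference was 0.37 (limma adjusted p 0.0341). That p-value came from a separate fit of gene means and was adjusted over genes, unlike those above. All 3 probe sets were under the yardstick.

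The 3 genes nearest to the called Igf1 probe set over the 4 arrays, by Euclidean distance of log2 values centred on the vehicle mean, were Nox1, a catalytic subunit of NADPH oxidase (distance 0.026), Rimbp2 (0.041) and Fgf11 (0.053). Their log2 differences were 0.51, 0.50 and 0.48. Likeness over 4 arrays of 1 contrast is a description only.

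Igf2 was low and not called. Its brightest probe set, 1367571_a_at, had 96.7 and 97.4 with PDGF-BB, against 131 and 116 with vehicle. Both PDGF-BB arrays were below both vehicle arrays, and the log2 difference was -0.30 (SE 0.10, 95% interval -0.57 to -0.04, limma adjusted p 0.0990). That interval leaves out 0 before adjustment, and the limma adjusted p passed, at 0.0332, when dim probe sets were removed from the test. That filter kept a probe set if the mean of either group was above the yardstick, so it drew on the groups compared. The limma adjusted p passed under none of the other 13 alternatives. For example, it was 0.0799 with an offset of 50 and 0.189 with array medians subtracted. Probe set 1388252_at had 56.2 and 49.5 with PDGF-BB and 59.6 and 59.8 with vehicle, under the yardstick on all arrays (log2 difference -0.14, limma adjusted p 0.376). The other 2 Igf2 probe sets had at most 4.17 on any array, with overlapping groups. H19, the imprinted noncoding RNA gene next to Igf2, was looked up after the Igf2 values were seen. It had 484 and 525 with PDGF-BB, against 481 and 462 with vehicle (log2 difference 0.09, limma adjusted p 0.539).

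The receptors showed no difference that passed. Igf1r, measured by 1 probe set, had 604 and 499 with PDGF-BB, against 504 and 492 with vehicle. The second PDGF-BB array lay within the vehicle range, and the log2 difference of 0.14 (SE 0.12, limma adjusted p 0.488) had a 95% interval of -0.19 to 0.47, or 0.874- to 1.38-fold. Igf2r had 2 probe sets, both far above background. Probe set 1386872_at had 3057 and 2821 with PDGF-BB and 3182 and 3109 with vehicle, and 1367636_at had 2348 and 2328 with PDGF-BB and 2670 and 2489 with vehicle. In both, the PDGF-BB arrays were below the vehicle arrays, by small amounts: the log2 differences were -0.10 (95% interval -0.35 to 0.15) and -0.14 (-0.38 to 0.10), with limma adjusted p-values of 0.512 and 0.341.

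Among the binding proteins, Igfbp2 and Igfbp7 were among the brightest signals of these cells and stayed close to the vehicle level. Igfbp2, which binds both IGFs and also contacts integrins, had 13156 and 12506 with PDGF-BB, against 13095 and 13307 with vehicle. The groups overlapped, and the log2 difference was -0.04 (SE 0.09, limma adjusted p 0.781), with a 95% interval of 0.825- to 1.14-fold. Igfbp7, a matrix-associated relative with low affinity for IGFs, had 8429 and 8196 with PDGF-BB, against 8967 and 8834 with vehicle. Both PDGF-BB arrays were lower, and the log2 difference was -0.10 (SE 0.09, limma adjusted p 0.474), with a 95% interval of 0.797- to 1.1-fold. Of the 205 probe sets with a mean above 8000, 3.41% were called. The highest intensity on any array was 17218, and whether such bright signals were compressed was not tested.

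Igfbp3, Igfbp4 and Igfbp6 were dimmer. Igfbp3, the main carrier of circulating IGFs, had 129 and 109 with PDGF-BB, against 118 and 149 with vehicle, in probe set 1367652_at, where the groups overlapped. In its other probe set, 1386881_at, it had 75.4 and 68.4 with PDGF-BB, against 104 and 82.1 with vehicle. There the PDGF-BB arrays were the lower pair, but the log2 difference of -0.30 (95% interval -0.66 to 0.06) had a limma adjusted p of 0.186. Igfbp4, which inhibits IGF action and is a substrate of PAPP-A, had 134 and 128 with PDGF-BB, against 169 and 146 with vehicle. The groups did not overlap, and the log2 difference was -0.24 (95% interval -0.52 to 0.05, limma adjusted p 0.197). Igfbp6, which prefers IGF2, had 171 and 142 with PDGF-BB, against 142 and 140 with vehicle, in 1372168_s_at, whose s suffix warns that its probes may also match other genes (log2 difference 0.13, limma adjusted p 0.492). The other Igfbp6 probe set, 1387625_at, was at 38.2 or less on every array.

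Igfbp5, a matrix-binding member, was near background in all 3 of its probe sets. The brightest, 1387347_at, had 37.5 and 58.3 with PDGF-BB, against 30.3 and 35.7 with vehicle, a log2 difference of 0.37 (95% interval -0.14 to 0.87, limma adjusted p 0.241). That difference was 0.60 without PDGF-BB replicate 1 (limma adjusted p 0.0680) and 0.13 without PDGF-BB replicate 2 (0.497). The other 2, 1387348_at and 1370960_at, ran from 23.0 to 48.1 with overlapping groups and log2 differences of 0.05 and 0.03. Its neighbour Igfbp2 was above the yardstick on all 4 arrays, and Igfbp5 under it on all 4.

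**Figure D2:**
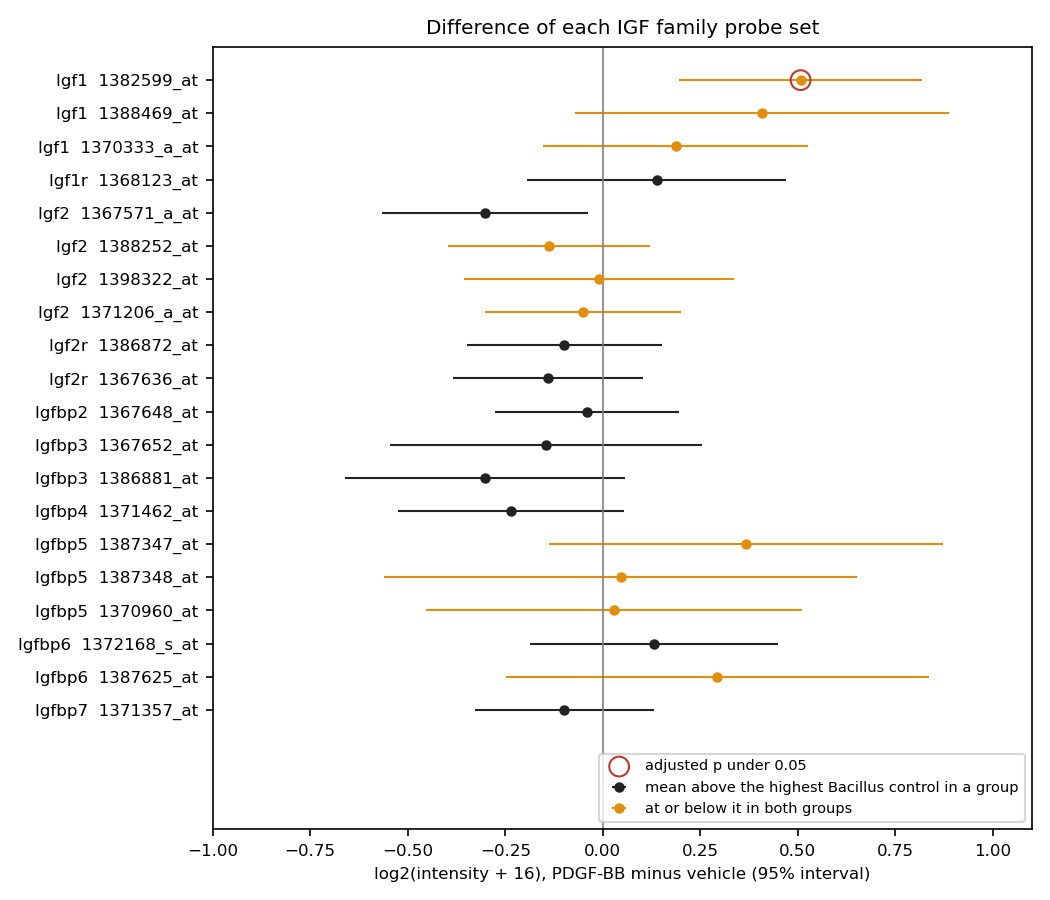
Difference of each IGF family probe set, PDGF-BB minus vehicle, on the log2(intensity + 16) scale, with the 95% interval from limma, where orange marks probe sets at or below the highest Bacillus control in both groups and a red ring the probe set called. All 20 estimates lie between -0.30 and 0.51, and the widest intervals belong to dim probe sets.

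**Figure D3:**
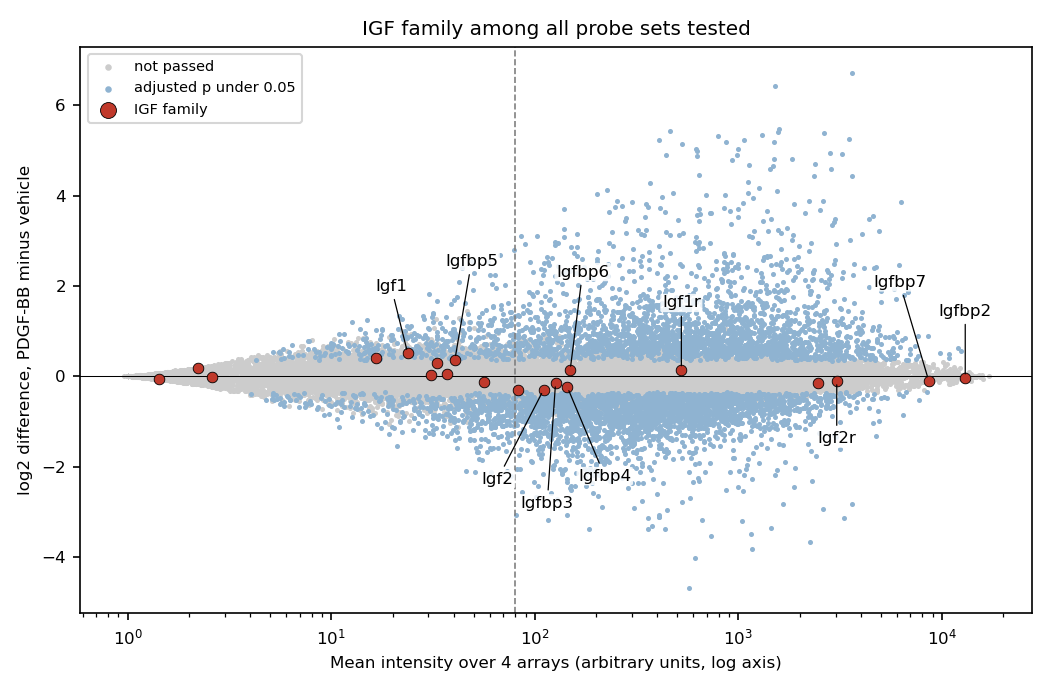
Log2 difference against mean intensity (log axis) for all 23707 probe sets, those called in blue and the others in grey, with the 20 IGF family probe sets in red, 1 of each gene labelled, and the background yardstick as a dashed line. The brightest IGF family probe sets lie near 0, and dimmer ones spread from -0.30 to 0.51. Called probe sets among all reach log2 differences of -4.68 and 6.72.

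The intervals bound what these arrays allow on the scale used. Over the 10 member probe sets above the yardstick, no 95% interval reached beyond 0.66 on the log2 scale in either direction. Over the 10 dimmer ones, the intervals reached up to 0.89, for the second Igf1 probe set. That limit depends on the offset. The log2 difference of Igf1 1388469_at was 0.82 with an offset of 1 and 0.19 with an offset of 50. That of Igf1 1370333_a_at was 1.01 and 0.07, so larger changes of dim transcripts are not excluded.

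Of 46 genes of the IGF axis outside the family, 8 rose and 7 fell, 32.6%, against 27.7% of all genes. Among all probe sets, 35.6% of those above the yardstick passed and 6.47% of those at or below it. Most of the 46 axis genes were above it. The median of their log2 differences was -0.01, against -0.03 over all genes.

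Of 9 measured genes for binding protein proteases, their inhibitors and further IGF carriers, 2 rose and 0 fell. Among all genes 12.4% rose and 15.3% fell. Stc1, stanniocalcin, known as an inhibitor of PAPP-A, had 369 and 356 with PDGF-BB, against 129 and 118 with vehicle. Both probe sets of Stc1 were called, and the log2 difference was 1.44 (SE 0.09, limma adjusted p 0.00239). Adam9, a membrane metalloprotease reported to cleave IGFBP5, had 240 and 226 with PDGF-BB, against 99.6 and 152 with vehicle, a log2 difference of 0.84 (SE 0.20, limma adjusted p 0.0493). The Adam9 call ended without PDGF-BB replicate 1 (0.173), PDGF-BB replicate 2 (0.167) or vehicle replicate 1 (0.132). Igfbp1, the binding protein gene beside Igfbp3 and best known from liver, had 15.6 and 9.15 with PDGF-BB and 3.34 on both vehicle arrays, all far under the yardstick. Its log2 difference of 0.54 had a limma adjusted p of 0.0560. It passed with an offset of 1 (0.0479), with array medians subtracted (0.0188) and without PDGF-BB replicate 2 (0.0423), and was at 0.0753 without PDGF-BB replicate 1 and at 0.224 and 0.218 without vehicle replicate 1 or 2. Pappa was not analysed here, and Pappa2 was near background, at 37.9 and 42.3 with PDGF-BB and 33.8 and 42.1 with vehicle.

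Of the 3 Igf2 mRNA-binding proteins, which bind Igf2 and other transcripts in the cytoplasm, Igf2bp2 rose. It had 898 and 781 with PDGF-BB, against 241 and 230 with vehicle, in probe set 1382220_at, a log2 difference of 1.76 (SE 0.11, limma adjusted p 0.00220). A dimmer Igf2bp2 probe set, 1382609_at, averaged 112 with PDGF-BB and 98.8 with vehicle and did not pass (log2 difference 0.15, limma adjusted p 0.388). Igf2bp1 and Igf2bp3 were at 32.0 or less on every array.

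Receptor-proximal genes went both ways, 3 of 15 higher and 4 lower, where 12.4% of all genes were higher and 15.3% lower. Grb2 was not called by its brightest probe set (log2 difference 0.31, limma adjusted p 0.0725). Its probe set 1368385_a_at was called higher (0.69, limma adjusted p 0.0185), and 1370617_at was not called (limma adjusted p 0.196). Irs1, an adaptor that docks on the insulin and IGF1 receptors, had 7.42 and 10.6 with PDGF-BB, against 87.7 and 97.7 with vehicle. The PDGF-BB arrays were under background and the vehicle arrays just above it, so the log2 difference of -2.12 (SE 0.11, limma adjusted p 0.00154) depends on the offset: it was -3.24 with an offset of 1 and -1.27 with an offset of 50, where Pik3r3, described further on, was at -1.81. Irs2, its relative, had 606 and 479 with PDGF-BB, against 453 and 481 with vehicle, a log2 difference of 0.20 (95% interval -0.18 to 0.58, limma adjusted p 0.380). The insulin receptor gene Insr was under the yardstick, at 69.8 and 71.8 with PDGF-BB and 61.0 and 69.4 with vehicle (log2 difference 0.10, limma adjusted p 0.539).

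Ptpn1, the phosphatase PTP1B that dephosphorylates insulin and IGF1 receptors, had 841 and 771 with PDGF-BB, against 257 and 277 with vehicle, a log2 difference of 1.54 (SE 0.10, limma adjusted p 0.00239). The docking protein gene Gab1 had 397 and 375 with PDGF-BB, against 781 and 808 with vehicle (log2 difference -1.01, limma adjusted p 0.00460), and missed the threshold without vehicle replicate 1 (0.0512) or 2 (0.0526). Smaller calls were those of the adaptor Sh2b2 (0.68), the adaptor Shc1 (0.38) and the Ras exchange factor Sos2 (-0.52). Leaving out either vehicle array ended all 3 calls, with limma adjusted p-values of 0.138 and 0.153 for Sh2b2, 0.237 and 0.240 for Shc1, and 0.163 and 0.175 for Sos2, without vehicle replicates 1 and 2 in that order. The call of Sh2b2 also ended without PDGF-BB replicate 1 (0.0534), that of Shc1 without PDGF-BB replicate 1 (0.0820) or 2 (0.0803) and that of Sos2 without PDGF-BB replicate 2 (0.0730). Most calls over all probe sets also ended when either vehicle array was left out, so such a loss is not particular to axis genes. Grb14, an adaptor that binds and inhibits the insulin receptor, was the other gene called lower. It had 3846 and 4172 with PDGF-BB, against 5276 and 5201 with vehicle, a log2 difference of -0.39 (SE 0.09, limma adjusted p 0.0491). Its call ended without any 1 array, with limma adjusted p-values of 0.0927 and 0.0706 without PDGF-BB replicate 1 or 2 and 0.259 and 0.234 without vehicle replicate 1 or 2.

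Of 19 genes of phosphoinositide 3-kinase, Akt and mTOR signalling, 2 rose and 3 fell, where 12.4% of all genes rose and 15.3% fell. All 19 were above the yardstick, and 35.6% of all such probe sets passed. Of the kinase's regulatory subunit genes, Pik3r1 rose and Pik3r3 fell. Pik3r1, which encodes p85 alpha, had 453 and 428 with PDGF-BB, against 165 and 169 with vehicle, a log2 difference of 1.32 (SE 0.09, limma adjusted p 0.00254). Pik3r3, which encodes p55 gamma, had 245 and 238 with PDGF-BB, against 885 and 1069 with vehicle, a log2 difference of -1.94 (SE 0.12, limma adjusted p 0.00232). Both pairs of arrays were well separated, and neither call ended when 1 array was left out. Pik3r2 did not pass in either of its probe sets, whose differences had opposite signs. The brighter, 1376190_at, had a log2 difference of 0.13 (limma adjusted p 0.561). The other, 1370100_at, had 295 and 229 with PDGF-BB, against 383 and 347 with vehicle, without overlap, and a log2 difference of -0.46 (95% interval -0.87 to -0.06, limma adjusted p 0.0984).

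The transcription factor gene Foxo3, whose product Akt inhibits, had 406 and 450 with PDGF-BB, against 762 and 727 with vehicle, a log2 difference of -0.78 (limma adjusted p 0.0103) that missed the threshold without vehicle replicate 1 (0.0934) or 2 (0.0783). Foxo3 probe sets 1376210_at and 1376229_at, both under the yardstick, did not pass (log2 differences -0.29 and 0.01, limma adjusted p 0.120 and 0.974). Pdpk1, the kinase that activates Akt, rose by 0.44 (limma adjusted p 0.0360) in the brighter of 2 called probe sets. Tsc1, part of the brake on mTOR, fell by 0.60 on the log2 scale (limma adjusted p 0.0426) in 1 of 2 probe sets. The Pdpk1 call ended without any 1 array, with limma adjusted p-values of 0.0880 and 0.0795 without PDGF-BB replicate 1 or 2 and 0.235 and 0.164 without vehicle replicate 1 or 2, and the Tsc1 call without PDGF-BB replicate 2 (0.0746) or vehicle replicate 1 (0.177) or 2 (0.194). Akt1 was at 3605 and 3634 with PDGF-BB and 3722 and 3678 with vehicle (log2 difference -0.03, limma adjusted p 0.828).

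**Figure D4:**
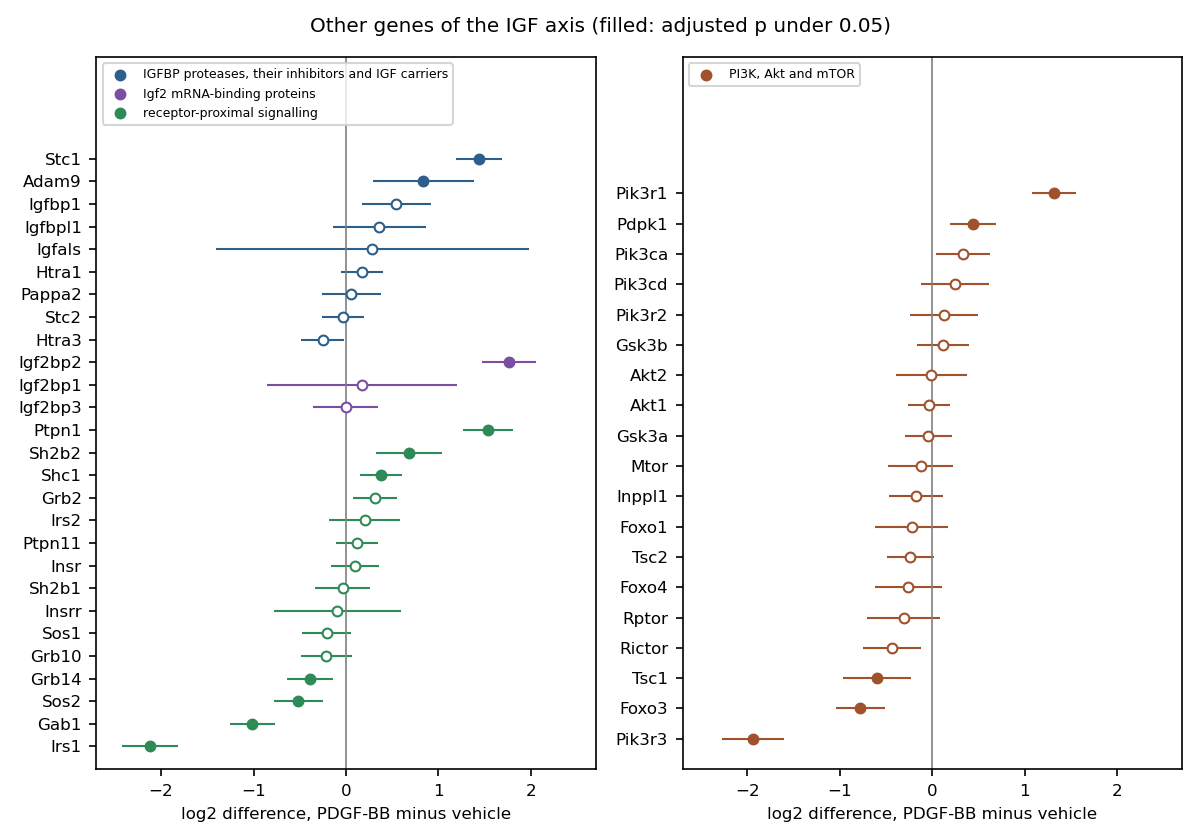
Log2 difference, PDGF-BB minus vehicle, of the 46 measured genes of the IGF axis outside the family, each by its brightest probe set, with the 95% interval from limma, colours for the 4 lists and filled points for adjusted p under 0.05. Igf2bp2, Ptpn1, Stc1 and Pik3r1 lie furthest right, between 1.32 and 1.76, and Irs1 and Pik3r3 furthest left, at -2.12 and -1.94.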

How the data were processed

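Rat aortic smooth muscle cell RNA was measured on Affymetrix arrays from biotin-labelled cRNA, per the labels' protocols, and the sample titles give the group and replicate of each array. The authors deposited 1 linear intensity per probe set and array, as the range of the values shows. How they summarised, background-corrected or scaled the arrays is not given in the sources used here, and no detection calls were used. After 57 control probe sets were left out, log2(intensity + 16) of 23707 probe sets was fitted in R 4.3.3 with limma 3.58.1 (lmFit, then eBayes). Tests were two-sided, p-values were adjusted by Benjamini-Hochberg across all these probe sets, and the threshold was 0.05. The design leaves 2 residual degrees of freedom, to which the prior added 2.40. An exact permutation test of 2 against 2 arrays cannot go below 0.333 and was not used. A platform annotation named the probe sets, and all 10 members matched a current RefSeq gene; promoters are RefSeq's, on GRCr8. A gene was represented by its probe set with the highest mean. From each axis list the text names up to 6 called genes in order of p, plus Insr, Irs1, Irs2, Pappa and Igfbp1. The axis genes Pappa2, Igf2bp1, Igf2bp3, Grb14, Grb2, Pik3r2 and Akt1 were added after their values were seen. Members and lists were chosen with earlier results of these data known. The fit was tested on simulated data. Alternatives changed the offset, scaling, filter, variance prior and replicate block, or left out 1 array.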

Additional observations from a re-analysis of the deposited data

How the results depend on the processing

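The count of member probe sets called was 1 in the fit as reported and 0 with an offset of 1, an offset of 50, no moderation of the variance, the replicate block or the crossed replicate block, and 0 in all 4 fits without 1 array; the count of member genes was likewise 0 in each of these. Where the count stayed at 1, the probe set was that of Igf1 after array medians were subtracted, quantile normalization or cyclic loess, but 1367571_a_at of Igf2 with dim probe sets removed and that of Igfbp7 with an intensity trend in the variance prior (limma adjusted p 0.0353). For the Igf1 probe set, limma adjusted p-values ran from 0.0285 to 0.231 over the alternatives. The count over all probe sets, 5779, was 610 without moderation and ran from 1272 to 4223 with 1 array left out. The count of axis genes, 15, was 9 with an offset of 1 and 1 without moderation (Pik3r1), and 6 to 10 with 1 array left out. Of all called probe sets 46.9% were higher, against 55.1% with array medians subtracted, 61.4% and 62.8% without vehicle replicate 1 or 2, and 64.4% without moderation.

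Signs turned for dim or nearly unchanged probe sets, and for Igfbp3 1367652_at, which was above the yardstick with a log2 difference of -0.15. With array medians subtracted, the log2 differences of Igf2 1398322_at, Igf2 1371206_a_at and Igfbp2 were 0.067, 0.025 and 0.035. With 1 array left out, Igf2 1398322_at ran from -0.13 to 0.11, Igf2 1371206_a_at from -0.11 to 0.0089, Igfbp3 1367652_at from -0.30 to 0.0047, Igfbp5 1387348_at from -0.27 to 0.36 and Igfbp5 1370960_at from -0.21 to 0.26. The causes were not tested. No sign turned among the 18 named axis genes tested. Most of these were in the set because they were called, which left little room for a sign to turn. Other axis genes named in the text, such as Akt1 and Pik3r2, were not in that set. The labels link same-numbered replicates only by their number. Their deviations correlated at -0.098 across probe sets, which with 1 pair per group cannot show whether they shared a culture or batch. Under the replicate block 4954 probe sets, 0 members and 11 axis genes were called. The crossed pairing, added after seeing this, called 4825, 0 and 10. Low signal over background limits Igf1, Igfbp5 and most Igf2 values.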
